A study of Mus musculus with 9 samples.

Results

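Of 24505 genes in a table of RNA-seq read counts from mouse male germ cells, 90 had no read in any of 3 libraries of retinoic acid (RA)-deficient preleptotene (PL) spermatocytes while reaching at least 1 CPM (a gene's counts divided by the library total and multiplied by 1000000) in each of 3 libraries of RA-sufficient PL spermatocytes. These genes were thus selected on their values in the PL libraries, and the difference between the PL groups is a description of them, with no test. In all, 13393 genes reached 1 CPM in every RA-sufficient library, and the 90 genes were 0.672% of these. A further group of libraries, from intermediate and type B (In/B) spermatogonia, played no part in the choice.

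RA is made from vitamin A by ALDH1A enzymes, which in the testis work in Sertoli cells and later in germ cells, and is broken down by CYP26 enzymes. It acts through nuclear receptors, the RARs and RXRs, that bind short paired motifs in DNA. In the testis it drives spermatogonia to differentiate, and it is also present when type B spermatogonia give rise to PL spermatocytes, the cells that replicate their DNA and then enter meiotic prophase.

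All cells came from Uchl1-eGfp mice outcrossed with CD-1 mice, which carry EGFP under control of the Uchl1 promoter. Cells were sorted by fluorescence, bright for spermatogonia and dim for PL spermatocytes, from testes pooled over pups of a litter. Mice of every group had received the RA synthesis inhibitor WIN18,446 at 100 µg per g body weight from postnatal day (P) 1, until P10 by the study's methods or P11 by the sample records, and on P11 a dose of RA under the skin (10 µl at 10 µg per µl). In/B spermatogonia were taken at P17 and RA-sufficient PL spermatocytes at P19, both after WIN18,446 had been stopped, and RA-deficient PL spermatocytes were taken at P19 from mice that went on receiving it. Every group had 3 libraries. The sort relied on EGFP brightness, so each library is an enriched population and not a pure stage.

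Depth was not lower where the genes were missing. RA-deficient libraries held 25048240 to 27042274 counts, In/B libraries 16872425 to 26684393 and RA-sufficient libraries 12612959 to 21833333. A zero over all RA-deficient libraries is 0 of 78980295 counts, which allows a level of up to 0.0380 CPM (3 counts), and this limit covers counting error only. Germ cell markers (Ddx4, Dazl and Uchl1) summed to 4129 to 5549 CPM in In/B, 1935 to 2332 CPM in RA-sufficient and 3196 to 4302 CPM in RA-deficient libraries. In the same order, Ddx4 was at 528 to 572, 411 to 451 and 419 to 482 CPM. Dazl was at 1100 to 1300, 1026 to 1250 and 1810 to 2197 CPM. Uchl1, whose promoter drives the EGFP used for sorting, was at 2419 to 3876.5, 458 to 640 and 905 to 1759.5 CPM. The differentiating spermatogonia markers Kit, Dmrt1 and Sohlh1 summed to 925 to 1297 CPM in In/B libraries. Their sums in RA-deficient replicates 1 and 2, 1006 and 1000.2 CPM, lay within that range. There Kit was above, and Dmrt1 and Sohlh1 below, all In/B libraries. Replicate 3, at 135 CPM, was close to the RA-sufficient libraries (108 to 128 CPM). The RA-deficient libraries are therefore not alike. The number of genes that met the rule, in all and on each list, is also given without replicate 3. The PL markers Stra8, Sycp3, Rec8 and Dmc1 summed to 224 to 462 CPM in In/B and 1349 to 1567 CPM in RA-sufficient libraries. Their RA-deficient sums were 1296 to 1332 CPM, near the RA-sufficient ones. Among these markers, only Sycp3 and Dmc1 were higher in every PL library than in every In/B library. Stra8 and Rec8 overlapped between In/B and both PL groups. Rec8 was at 18.6, 97.5 and 98.8 CPM in In/B libraries. It was at 48.8, 33.5 and 31.1 CPM in RA-sufficient and 27.3, 36.8 and 5.35 CPM in RA-deficient libraries. Whether the spermatogonia marker levels bear on the zeros of RA-deficient libraries was not tested.

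RA-deficient libraries also held few genes at low counts of any kind. Between 306 and 411 genes had 1 to 3 counts in an RA-deficient library, against 1263 to 1739 in the other 6 libraries. Genes at 11 to 30 counts numbered 1502 to 1568 in RA-deficient libraries and 1656 to 1807 in the others, so the shortfall was in the lowest counts. Zeros also differed between RA-deficient replicates. Of 658 genes at 1 CPM or more in all RA-sufficient libraries and at 0 in RA-deficient replicate 2, 466 had over 10 counts in replicate 3 and 113 had over 100. Of the 13393 genes, 560 were at 0 in 1 RA-deficient library, 322 in 2 and 90 in all 3. Leaving out RA-deficient replicate 3 raised the number of genes that met the rule from 90 to 319, and leaving out replicate 1 or 2 raised it to 149 or 124. The part of this shortfall at low counts in the zeros of the 90 genes was not tested.

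**Figure D1:**
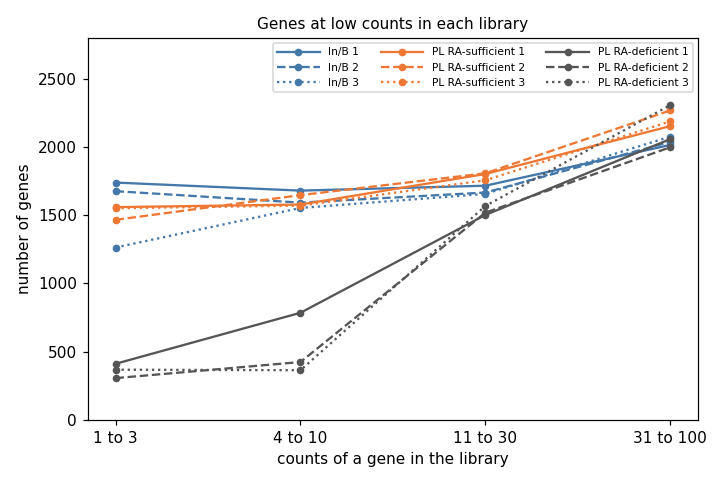
Number of genes (vertical axis) at 1 to 3, 4 to 10, 11 to 30 and 31 to 100 counts (horizontal axis) in each of 9 libraries, with groups by color and replicates by line style. The RA-deficient libraries lie at 306 to 411 genes in the lowest range, below all others (1263 to 1739), and meet them at 31 to 100 counts.

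Most of the genes were at a low level where they were measured. Their mean in RA-sufficient PL spermatocytes had a median of 3.05 CPM and ran from 1.26 to 44.95 CPM. All but 8030411F24Rik had a mean of at most 11.1 CPM, and the other 3736 genes in that range (at least 1 CPM in every RA-sufficient library) serve below as genes of like level. The RA-sufficient mean was 80.2 times the RA-deficient limit of 0.0380 CPM for the median gene, and 33.3 to 1183 times over all 90. Both sides of this ratio are values that the rule used, 0 counts and a minimum of 1 CPM. It is a description only, and the limit leaves out the spread between replicates. In bulk libraries, fewer cells of a type and less RNA per cell cannot be told apart. The share of genes without an RA-deficient read fell with level, from 26 of 446 genes (5.83%) at a mean of 1 to 2 CPM and 50 of 1606 (3.11%) at 2 to 5 CPM to 0 of 5014 at 50 CPM or more. It fell more steeply with the level in In/B spermatogonia. Among genes of like RA-sufficient level, 45 of 205 (22.0%) with an In/B mean under 0.2 CPM had no RA-deficient read, against 1 of 1593 (0.0628%) with an In/B mean of at least 5 CPM.

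**Figure D2:**
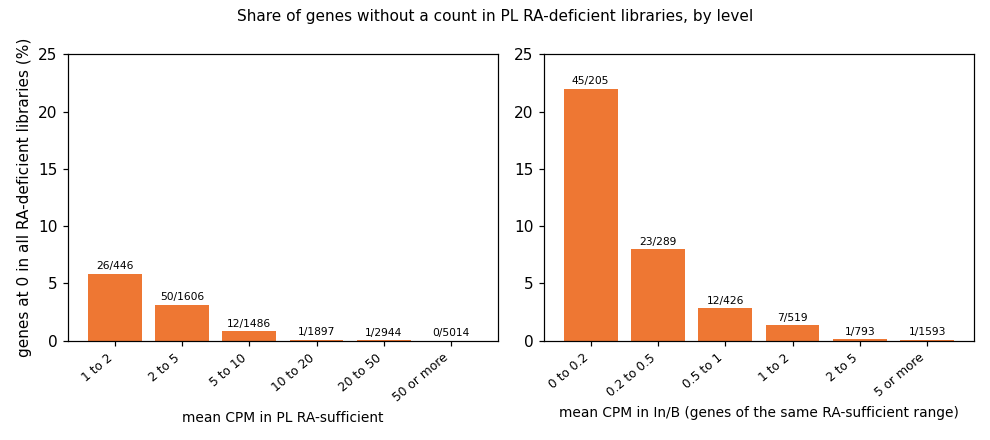
Percentage of genes with 0 counts in all RA-deficient libraries (vertical axis) by mean CPM in RA-sufficient PL libraries (left; all 13393 genes at 1 CPM or more) and by mean CPM in In/B libraries (right; genes up to 11.1 CPM in RA-sufficient PL). Figures over the bars are the genes without a read out of all genes in the bin, and the bars fall from 5.83% on the left and from 22.0% on the right.

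Exchanging the groups gave far fewer genes, but zeros were also commonest in the RA-deficient group. In all, 7479 genes had no read in any RA-deficient library, 5703 in any In/B library and 5090 in any RA-sufficient library. No gene had 0 counts in all RA-sufficient libraries and at least 1 CPM in all RA-deficient libraries, whose totals were larger. There were 12 genes at 0 in In/B spermatogonia and at 1 CPM or more in RA-sufficient PL spermatocytes, of which 6 belonged to the 90. For 21 genes there were 0 counts in all RA-deficient libraries and at least 1 CPM in all In/B libraries. Glrb, Jakmip3 and Mlkl were the 3 genes shared between these 21 and the 90.

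The 90 genes were also compared with the In/B libraries. In/B spermatogonia precede PL spermatocytes, so this comparison asks whether transcripts that were missing without RA already had reads in the In/B libraries. They were mostly near the detection limit in In/B spermatogonia: the In/B mean had a median of 0.196 CPM, 70 genes were below 1 CPM in all In/B libraries with at least 1 read, and 6 had no read at all (BC048502, Prss40, Tmem225, H2-Ob, Fam170b and Catsper1). Another 11 reached 1 CPM in 1 or 2 In/B libraries and 3 in all. Without In/B replicate 2, the deepest of its group, 18 genes had no read in the remaining In/B libraries and 6 were at 1 CPM or more in both, and the latter number was also 6 without In/B replicate 1. For 83 of the 90 genes (92.2%) every In/B library lay below every RA-sufficient library, which was so for 39.2% of the 13393 genes at 1 CPM or more and for 38.2% of the genes of like level. The libraries overlapped for 6 genes, and those of Glrb lay above. Besides stage, In/B and RA-sufficient libraries differed in age (P17 against P19), in the EGFP brightness sorted for and in somatic cell markers. A Sertoli cell list summed to 293 to 781 CPM in In/B and 5748 to 8194 CPM in RA-sufficient libraries. The peritubular and stromal markers Acta2, Myh11, Col1a1 and Dcn had a lower sum in RA-sufficient libraries. The part of these differences in the In/B levels of the 90 genes was not tested.

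Of the 90 genes, 84 were called higher in RA-sufficient PL than in In/B spermatogonia and 1 lower, by edgeR's quasi-likelihood test. A call required a change of more than 1 on the log2 scale in either direction and p below 0.05 after Benjamini-Hochberg adjustment over all genes. Among all 15001 genes tested, 26.1% were called higher and 19.3% lower. Among the 13393 genes at 1 CPM or more, these shares were 27.4% and 17.9%, and among the 3736 genes of like level 32.3% and 25.5%. Some fixed marker lists also had high shares called higher, so a rise over In/B was not particular to the 90 genes. It was 28 of 29 tested Sertoli genes, 104 of 129 axoneme, 47 of 61 spermatid and 13 of 16 blood genes. The other lists had lower shares, down to 2 of 17 differentiating spermatogonia genes. The choice of the genes required 1 CPM in the same RA-sufficient libraries that the test uses, so that all 90 passed the filter on low counts through that group. The calls, fold changes and adjusted p-values of the 90 genes, here and below, lean on values used in the choice and are descriptions. Their median log2 fold change was 3.90, against 0.0431 over all genes tested and 0.21 over the genes of like level. Over the 76 genes with more than 3 In/B counts, the median ratio of the group means was 12.3.

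**Figure D3:**
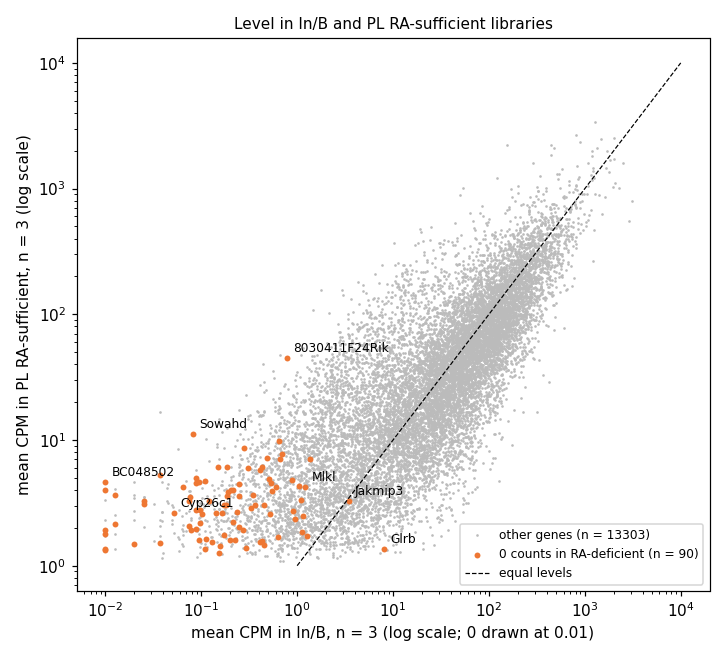
Mean CPM in RA-sufficient PL libraries (vertical axis, log scale) against mean CPM in In/B libraries (horizontal axis, log scale, 0 drawn at 0.01) for the 13393 genes at 1 CPM or more in every RA-sufficient library. The 90 genes without an RA-deficient read (orange) lie to the left of the line of equal levels except Jakmip3, which is close to it, and Glrb.

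**Figure D4:**
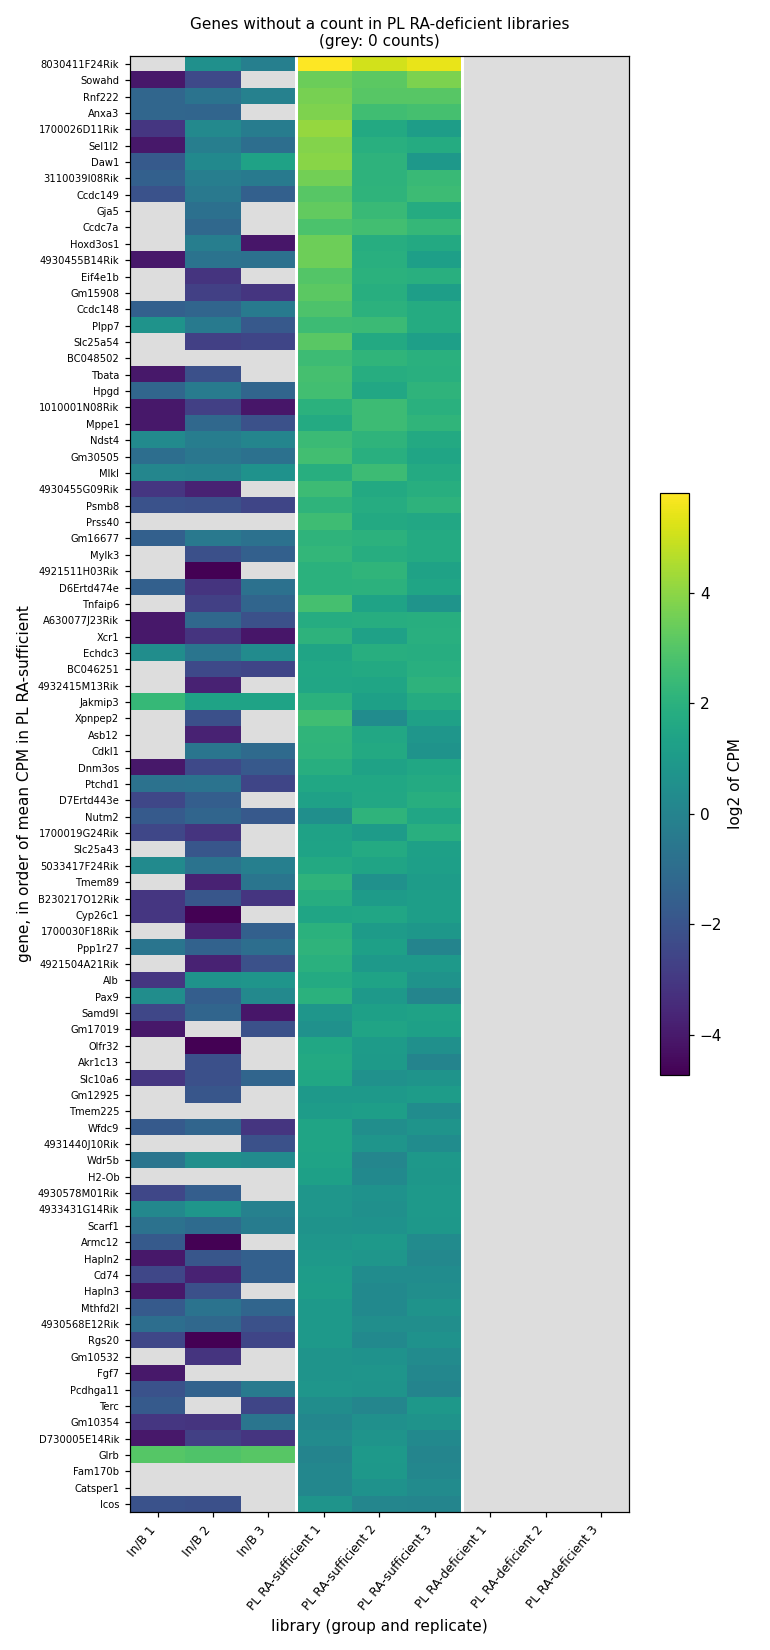
Level of 89 of the 90 genes (rows, in order of mean RA-sufficient CPM) in each of 9 libraries (columns), as log2 of CPM by color, with 0 counts in grey. The RA-deficient columns are grey by the choice of the genes, the RA-sufficient columns are filled throughout, and the In/B columns are mixed, with 59, 79 and 59 genes above 0.

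The highest of the 90 genes by far was 8030411F24Rik, at 56.3, 34.2 and 44.3 CPM in the RA-sufficient libraries (710, 541 and 968 counts) and at 0, 1.46 and 0.872 CPM in the In/B libraries. Its log2 fold change between these groups was 5.75 (SE 0.71, quasi-likelihood adjusted p = 1.69e-04 by edgeR). Per kilobase of exon it was also first among the 83 genes with an mm9 gene model, at 74.7 CPM per kb against a median of 1.55. In mm9 it spans chr2:148607745-148611673 on the plus strand, inside a cluster of cystatin genes, which encode small inhibitors of cysteine proteases. The nearest of these, Cst12, starts 3424 bases downstream. Cst12 was at 248, 147 and 176 CPM in RA-sufficient, at 3.56, 22.1 and 13.1 CPM in In/B and at 12.1, 8.69 and 13.1 CPM in RA-deficient libraries. Cst9, 49210 bases away, had means of 7.75, 249 and 17.3 CPM in In/B, RA-sufficient and RA-deficient libraries. Thus both neighbors were highest in the same libraries as 8030411F24Rik, and unlike it they kept reads in every RA-deficient library. Other cystatin genes differed from these. Cst11 and Cst8, 10512 and 12848 bases away, had no RA-deficient read and were low in RA-sufficient libraries, with means of 0.205 and 1.09 CPM, and Cst3 had means of 150.0 CPM in RA-sufficient and 169 CPM in RA-deficient libraries. Of 10 other genes within 100000 bases, all RA-deficient libraries lay below all RA-sufficient libraries for 6 and overlapped with them for 4, and 5 had no RA-deficient read. Over the 13393 genes at 1 CPM or more, 36.8% lay below and 13.6% above, and 7479 of all 24505 genes had no RA-deficient read. Some of the 10 genes were under 1 CPM, and no result about the region is drawn from so few. Cst12 and Cst9 are known from Sertoli cells. A list of 31 Sertoli cell markers, Cst12 and Cst9 among them, summed to 293 to 781 CPM in In/B, 5748 to 8194 CPM in RA-sufficient and 702 to 1052 CPM in RA-deficient libraries, and 1 of them (Inhba) was at 0 in all RA-deficient libraries. The defining markers Sox9, Wt1, Amh, Cldn11 and Fshr summed to 18.8 to 51.1, 452 to 631 and 51.8 to 84.8 CPM in the same order. The part of these cells in the levels of the 90 genes was not tested. The promoter of 8030411F24Rik is shown because this gene had the highest RA-sufficient level of the 90, all of which are at 0 in the RA-deficient group by their choice. The window runs from 250 bases before to 50 after the start in RefSeq on build GRCm38.p6, chr2:148781759-148782058 on the plus strand, and it held neither AGGTCA nor GGGCGG on either strand.
8030411F24Rik: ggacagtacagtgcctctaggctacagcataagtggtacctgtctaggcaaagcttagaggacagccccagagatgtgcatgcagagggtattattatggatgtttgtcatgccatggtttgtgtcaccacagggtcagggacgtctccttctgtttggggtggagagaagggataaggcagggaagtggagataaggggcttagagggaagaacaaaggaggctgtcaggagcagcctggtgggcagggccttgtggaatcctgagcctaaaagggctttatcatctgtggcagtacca

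Cyp26c1 encodes an enzyme that degrades RA and was the only one of the 90 genes on a list of 33 genes for RA synthesis, transport, receptors, breakdown and targets. It had 2.77, 2.85 and 2.24 CPM in RA-sufficient libraries and 0.119, 0.0375 and 0 CPM in In/B libraries (3 counts in all), so the groups did not overlap. Its levels were nearly even among RA-sufficient replicates, at 2.62 ± 0.329 CPM (SD, n = 3). On mm9 it occupies chr19:37760071-37767888, and Cyp26a1, a gene for another RA-degrading enzyme, begins 4410 bases further on. Cyp26a1 was at 14.8, 10.2 and 13.9 CPM in RA-sufficient libraries, at 0.474, 0.225 and 0 CPM in In/B and at 0, 0.444 and 1.08 CPM in RA-deficient libraries. It missed the rule only through reads in RA-deficient replicates 2 and 3. Cyp26b1, the remaining gene of this enzyme family, had an opposite order, at 35.1, 17.01 and 19.3 CPM in In/B and 10.6, 8.98 and 8.02 CPM in RA-sufficient libraries.

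Other genes of the RA list are given for context. Of 27 tested, 13 were called higher in RA-sufficient PL than in In/B spermatogonia by the same edgeR test, 4 lower and 10 neither. Over all 15001 genes tested, 26.1% were called higher and 19.3% lower. Between the PL groups, all RA-deficient libraries lay below all RA-sufficient libraries for 13 of the 24 listed genes at 1 CPM or more, above them for 2, and overlapped for 9. Over all 13393 genes, 36.8% lay below and 13.6% above. Stra6, the membrane receptor that takes up vitamin A from its carrier, was at 132, 91.0 and 84.4 CPM in RA-sufficient and at 7.14, 7.21 and 7.07 CPM in RA-deficient libraries. Rarres1, named for its response to an RA receptor ligand, was at 10.7, 6.77 and 8.75 CPM against 0, 0.481 and 0.319 CPM. Tgm2, a transglutaminase known as an RA target, was at 30.1, 28.1 and 30.6 CPM against 3.46, 1.63 and 3.59 CPM. For each of these 3 genes the PL groups did not overlap. Stra8, a target of RA whose need for meiotic initiation the study disputes, did overlap. It was at 478, 132 and 125 CPM in RA-sufficient and 351, 341 and 74.5 CPM in RA-deficient libraries. In RA-deficient mice the study could not detect STRA8 protein, and by PCR it saw no increase of Stra8 in PL spermatocytes. Its sequencing gave no significant change of Stra8 mRNA at that stage. The 2 genes with RA-deficient libraries above were the receptors Rarg (66.3 against 22.5 CPM, group means) and Rxra (36.3 against 18.5 CPM). The promoter of Cyp26c1 is printed as the gene of the RA pathway among the 90. It lies at chr19:37685430-37685729 of GRCm38.p6, plus strand, from RefSeq.
Cyp26c1: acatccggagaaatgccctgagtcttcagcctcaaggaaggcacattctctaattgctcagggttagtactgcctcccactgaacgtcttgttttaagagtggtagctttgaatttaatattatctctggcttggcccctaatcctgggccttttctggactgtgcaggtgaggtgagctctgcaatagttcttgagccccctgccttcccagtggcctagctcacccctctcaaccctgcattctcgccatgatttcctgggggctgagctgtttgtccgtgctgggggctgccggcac
Paired AGGTCA motifs with a spacing of 5 or 2 bases, a strict form of RA response element with no variant letters, were searched on both strands in the same 300-base windows. They were found in 0 of the 67 promoters of the 90 genes that RefSeq held, and each in 2 of all 27025 promoters. Such exact pairs are so rare that 0 of 67 cannot set the 90 genes apart, and nothing is drawn from it. A single AGGTCA was in 6 of the 67 (8.96%), against 14.5% of the promoters of genes of like level and 4335 of all 27025 promoters.

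Psmb8, H2-Ob, Cd74, Icos, Xcr1, Samd9l and Mlkl, 7 of the 90 genes, have roles in antigen presentation, immune signaling or cell death. They were grouped after the values were seen, and the share of such genes among all genes was not measured. Psmb8 encodes a subunit of the immunoproteasome, which cuts proteins into peptides for display on class I molecules. It was at 4.36, 3.48 and 4.21 CPM in RA-sufficient and 0.237, 0.225 and 0.174 CPM in In/B libraries, and rose by a log2 fold change of 4.21 (SE 0.45, quasi-likelihood adjusted p = 8.36e-05 by edgeR). H2-Ob, a chain of a class II chaperone in B cells, was at 2.38, 1.20 and 1.79 CPM in RA-sufficient libraries and at 0 in all In/B libraries, and was thus at least 36.2-fold higher than the limit of 3 counts over the In/B group. The genes lie 37449 bases apart on chromosome 17 in the major histocompatibility complex. Between them and beside them are Tap1 and Tap2, the subunits of the transporter that carries peptides to class I molecules. Tap2 was at 23.5, 18.2 and 27.1 CPM in RA-sufficient libraries, 0.237, 0.412 and 0.233 CPM in In/B and 0.744, 1.89 and 4.55 CPM in RA-deficient libraries. Tap1 had means of 0.828, 13.9 and 2.32 CPM in In/B, RA-sufficient and RA-deficient libraries. H2-Ab1, a class II chain 9304 bases from H2-Ob, kept 22.3, 24.9 and 39.3 CPM in RA-deficient libraries, against 33.3, 41.6 and 67.5 CPM in RA-sufficient ones. Of 12 other genes within 100000 bases of Psmb8 or H2-Ob, all RA-deficient libraries lay below all RA-sufficient libraries for 5, Tap1 and Tap2 among them. They lay above for Brd2 (1341 against 624 CPM, group means) and overlapped for 6, H2-Ab1 among them. Over the 13393 genes at 1 CPM or more, 36.8% lay below and 13.6% above, so 5 of 12 is near that share. H2-Aa, H2-DMb2 and H2-Eb2 also had no RA-deficient read, with RA-sufficient means of 0.498, 0.422 and 0.0844 CPM. Thus the genes of this region did not all follow Psmb8 and H2-Ob.

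Cd74, the invariant chain of class II molecules and a marker of B cells and macrophages, was at 2.14, 1.33 and 1.33 CPM in RA-sufficient and 0.178, 0.0750 and 0.349 CPM in In/B libraries. It was called higher, with a log2 fold change of 3.03 (SE 0.64, quasi-likelihood adjusted p = 0.00305 by edgeR). It was the only one of the 90 on a list of 47 macrophage, lymphocyte and blood genes. That list summed to 13.5 to 19.8 CPM in In/B, 128 to 168 CPM in RA-sufficient and 50.4 to 88.6 CPM in RA-deficient libraries, where 25 of its genes, Ptprc among them, were at 0 throughout. Ptprc, the common leukocyte antigen, was also at 0 in all In/B libraries. The part of blood cells in the level of Cd74 was not tested. Mlkl, the effector of necroptosis, was at 3.73, 5.63 and 3.30 CPM in RA-sufficient and 1.07, 1.01 and 1.57 CPM in In/B libraries, and rose by a log2 fold change of 1.81 (SE 0.41, quasi-likelihood adjusted p = 0.0043 by edgeR). It was 1 of 3 genes at 1 CPM or more in every In/B library.

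**Figure D5:**
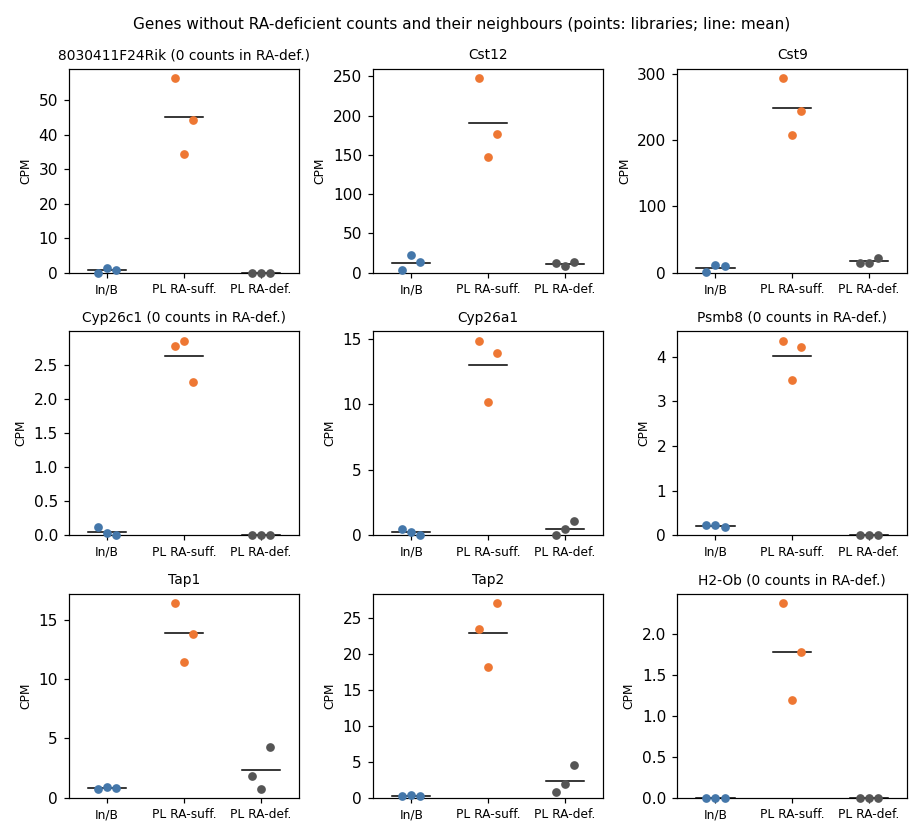
CPM per library (points, vertical axes from 0) and group mean (lines) of 4 genes without an RA-deficient read (8030411F24Rik, Cyp26c1, Psmb8 and H2-Ob) and 5 genes near them, in In/B, RA-sufficient PL and RA-deficient PL libraries (horizontal axis). All 9 genes are highest in RA-sufficient PL, and Cst12, Cst9, Tap1 and Tap2 keep reads in every RA-deficient library.

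Genes of the sperm tail and acrosome numbered 5, grouped after the values were seen (Catsper1, Daw1, Armc12, Prss40 and Fam170b). The share of such genes among all genes was not measured. Catsper1 encodes the pore of the sperm tail calcium channel. It was at 1.11, 1.58 and 1.28 CPM in RA-sufficient libraries and at 0 in all others, at least 26.8-fold above the In/B limit. Prss40, a serine protease of the sperm head, was at 5.87, 3.16 and 3.02 CPM, and was at least 81.4-fold above that limit. Fam170b, an acrosomal protein, was at 1.11, 1.83 and 1.10 CPM in RA-sufficient libraries and had no read in In/B libraries. Daw1, which helps to assemble the dynein arms of cilia and flagella, stood apart from these with an uneven level, 15.2, 4.24 and 1.88 CPM in RA-sufficient and 0.296, 1.20 and 2.56 CPM in In/B libraries, so that the groups overlapped. It was called higher, with a log2 fold change of 2.38 (SE 0.88, quasi-likelihood adjusted p = 0.0397 by edgeR). Without RA-sufficient replicate 1 its log2 fold change was 1.19 (adjusted p = 0.210 from the same edgeR test), and it was not called. Catsper1 was the only gene of the 90 on a list of 146 axoneme and flagellum genes, and no gene of the 90 was on a list of 125 genes of the spermatid nucleus and acrosome. This rested on RA-deficient replicate 3. Without it, 12 genes of the axoneme list (among them Tekt3, Tekt4, Dnali1 and Odf4) and 9 of the spermatid list (among them Actl7b and Adam18) were among the 319 that met the rule. The base for these counts is 125 axoneme, 55 spermatid and 13393 genes in all at 1 CPM or more in every RA-sufficient library. The axoneme list summed to 10693, 5085 and 4395 CPM in RA-sufficient replicates 1, 2 and 3, to 1311 to 1574 CPM in In/B and to 1152, 1162 and 3026 CPM in RA-deficient replicates 1, 2 and 3.

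Replicate 1 was the highest RA-sufficient library for 59 of the 90 genes, replicate 2 for 17 and replicate 3 for 14. The 90 genes summed to 468, 300 and 288 CPM in these libraries and to 34.1, 43.4 and 41.9 CPM in In/B libraries. Of 13 genes whose highest RA-sufficient value was at least 3 times the lowest, 12 were highest in replicate 1, which also had the highest sums of the axoneme and Sertoli lists. Among the genes with high means, 1700026D11Rik was at 17.9, 3.23 and 2.20 CPM, Sel1l2 at 14.6, 3.80 and 3.34 CPM and Hoxd3os1, an antisense transcript of the Hoxd cluster, at 11.1, 3.54 and 3.16 CPM. Gm15908 and 4930455B14Rik, both annotated as long intergenic noncoding RNAs, were at 9.04, 3.67 and 2.24 CPM and at 11.2, 3.73 and 2.34 CPM. In these 5 genes replicate 1 alone was high. All 5 were called higher than in In/B spermatogonia, with log2 fold changes from 3.40 to 5.59. Without RA-sufficient replicate 1 all 5 were still called, with log2 fold changes of 1.92 for 1700026D11Rik (quasi-likelihood adjusted p = 0.0493 by edgeR), 2.83 for Sel1l2, 3.28 for Hoxd3os1, 4.87 for Gm15908 and 2.83 for 4930455B14Rik.

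Sowahd, Rnf222 and Ccdc7a were more even. Sowahd, an X-linked gene for a protein with ankyrin repeats, was at 11.02, 8.92 and 13.5 CPM in RA-sufficient and at 0.0593, 0.187 and 0 CPM in In/B libraries, with a log2 fold change of 6.79 (SE 0.62, quasi-likelihood adjusted p = 4.08e-05 by edgeR). Rnf222, which encodes a RING finger protein, was at 12.7, 8.48 and 8.52 CPM against 0.415, 0.600 and 0.930 CPM. Ccdc7a was at 7.14, 6.20 and 4.95 CPM in RA-sufficient libraries and at 0.450 CPM in In/B replicate 2 alone. Thus the groups were apart for all 3. A further 4 genes were less even and highest in replicate 1. Anxa3, a calcium-dependent membrane-binding protein, was at 13.7, 5.95 and 6.46 CPM, Gja5, the gap junction protein connexin 40, at 9.67, 5.31 and 3.34 CPM, 3110039I08Rik at 11.7, 4.24 and 5.27 CPM and Ccdc149 at 8.48, 4.30 and 5.63 CPM. Eif4e1b, a cap-binding protein of oocytes related to the translation initiation factor eIF4E, was at 7.93, 4.05 and 3.80 CPM in RA-sufficient libraries and had 3 counts over all In/B libraries. BC048502 and Tmem225 had no In/B read and were at least 94.3-fold and at least 38.8-fold above the In/B limit, with 5.63, 4.49 and 3.85 CPM and 2.14, 2.28 and 1.33 CPM in RA-sufficient libraries.

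Glrb, the beta subunit of the glycine receptor, went the other way. It was at 8.30, 7.46 and 8.31 CPM in In/B libraries and at 1.03, 1.96 and 1.05 CPM in RA-sufficient libraries, and fell by a log2 fold change of -2.54 (SE 0.37, quasi-likelihood adjusted p = 4.09e-04 by edgeR). Its RA-sufficient level was just above the minimum of the rule. The 5 genes not called were Jakmip3, 4933431G14Rik, Wdr5b, Alb and Pax9, of which Pax9 was outside the rule for naming genes and was added after its values were seen. Jakmip3, a neuronal protein that binds microtubules, was at 5.10, 2.59 and 2.62 CPM in In/B and 4.04, 2.40 and 3.34 CPM in RA-sufficient libraries, so the groups overlapped. Its log2 fold change was -0.05 (SE 0.40, quasi-likelihood adjusted p = 0.92 by edgeR). For 4933431G14Rik, Wdr5b, Alb (serum albumin) and Pax9 (a paired-box transcription factor) the log2 fold changes were 0.44, 0.71, 1.10 and 1.32, and their quasi-likelihood adjusted p by edgeR were 0.403, 0.253, 0.219 and 0.112. Of these, 4933431G14Rik had 1.13, 1.76 and 0.930 CPM in In/B and 1.74, 1.46 and 1.97 CPM in RA-sufficient libraries.

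Smaller groups by function were also formed after the values were seen. Hapln2, Hapln3 and Tnfaip6, whose products bind hyaluronan in the matrix, had RA-sufficient means of 1.60 to 3.61 CPM and In/B means of 0.0947 to 0.223 CPM. Mylk3 (cardiac myosin light chain kinase), known from muscle, had a mean of 3.89 CPM in RA-sufficient PL spermatocytes. Fgf7, a growth factor that stromal cells make for epithelia, had a mean of 1.49 CPM and 1 count in all In/B libraries. Slc25a43, Slc25a54 and Slc10a6 are membrane carriers, at means of 2.03 to 4.69 CPM. Terc, the RNA template of telomerase, was at 1.35, 1.08 and 1.88 CPM in RA-sufficient and 0.296, 0 and 0.174 CPM in In/B libraries. Every gene of this paragraph was called higher in RA-sufficient PL than in In/B spermatogonia. In all, 32 of the 90 genes could be put in such groups, and the share among all genes was not measured. No more than 1 was on any of 11 lists of meiotic, spermatid, axoneme, RA pathway, spermatogonial or somatic genes. These lists held only 1 to 23 genes each in the level range of the 90, of whose 3825 genes 2.33% belonged to the 90, so 0 or 1 gene on a list is near that share. Without RA-deficient replicate 3 the pachytene list held 1 gene that met the rule (Ccna1), the Sertoli list 1 (Fshr) and the blood list 2 (Cd74 and Itgax), and without replicate 1 or 2 the list counts were as with all libraries. These lists held 44, 29 and 11 of the 13393 genes at 1 CPM or more, of which 319 met the rule without replicate 3.

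Many of the remaining genes carry provisional names. Of the 90 genes, 28 (31.1%) are named as RIKEN clones or predicted genes, against 13.2% of genes of like level, and 63 of the 83 with an mm9 model (75.9%) are protein coding, against 92.7%. Their exonic length had a median of 2078 bases, against 2996 bases for genes of like level. On the X chromosome there were 5 of the 83 genes (6.02%, against 4.79%), and on chromosome 2 there were 11 (13.3%, against 7.56%). Exons of 18 genes overlapped those of another gene, 16 of them on the opposite strand, as for Gja5 with Gpr89 and Hoxd3os1 with Hoxd3. Whether strand was used in counting is not stated in the sources used here, so reads of such pairs cannot be told apart.

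The 67 promoters found in RefSeq were lower in G and C than those of genes of like level, with a median of 52.3% against 58.7% over 2889 promoters, and close to the 52.7% of all 27025 promoters. The GC box GGGCGG, on either strand, was in 29.9% of them, against 55.0% and 35.9%. The X-box, the paired motif bound by RFX factors of ciliated cells and spermatids, was in 1 promoter (1.49%, against 0.45% and 0.444%), that of 4930455B14Rik. It is printed with the X-box in capitals, at chr14:8666140-8666439 of GRCm38.p6, plus strand, from RefSeq.
4930455B14Rik: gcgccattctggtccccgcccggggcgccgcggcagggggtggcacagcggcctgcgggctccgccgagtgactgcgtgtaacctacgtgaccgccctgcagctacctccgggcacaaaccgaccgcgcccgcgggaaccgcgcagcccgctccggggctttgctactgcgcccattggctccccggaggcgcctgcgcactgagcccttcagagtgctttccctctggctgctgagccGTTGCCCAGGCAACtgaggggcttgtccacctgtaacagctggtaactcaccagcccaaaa
Its first letter is at position 240 of the window, 11 bases before the start. Such a match is a run of letters and not a measured site.

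At the edge of the rule, the genes just inside were Akr1c13, Pcdhga11 and Ppp1r27, each with a lowest RA-sufficient value of 1.01 CPM. Tnfrsf23, 4933406K04Rik and 1700003I22Rik, also without an RA-deficient read, fell just short with lowest values of 0.962, 0.962 and 0.949 CPM. Stk26 missed by 1 count in RA-deficient replicate 2 and had 26.6, 17.8 and 11.8 CPM in RA-sufficient libraries. Gm867 and Il11 had 1 count each, both in RA-deficient replicate 3. With at most 3 counts allowed over the RA-deficient libraries in place of 0, 104 genes met the rule, among them all 90.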

How the data were processed

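mRNA was measured in 9 libraries, 3 each of In/B spermatogonia, RA-sufficient PL spermatocytes and RA-deficient PL spermatocytes, grouped by their labels. The authors deposited 1 table of whole-number counts of mapped reads with 24505 gene rows, not normalized, and 0 columns were left unused. Per the study's methods and processing notes, stranded poly(A) libraries were read single-end (75 bases), trimmed with cutadapt 1.9, aligned to mm9 with STAR 2.5.2b and counted with featureCounts. The annotation is not given in the sources used here. By the study's methods, RNA came from 2 or 3 separate preparations of sorted cells, and which number applies to which group is not given, so p-values measure the spread between these libraries.

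CPM were counts divided by the column total. RA-sufficient PL and In/B libraries were compared with edgeR 4.0.16 in R 4.3.3 (TMM, filterByExpr, quasi-likelihood test, Benjamini-Hochberg adjustment), and the test was tested on simulated data. DESeq2 1.42.0, other scalings, filters and thresholds, a replicate block and fits without 1 library were alternatives. Gene models are those of GENCODE M1 (mm9), matched by name for 20340 rows and by another name for 1680. Promoters are from RefSeq (GRCm38.p6). The 26 names turned into dates and the 2 that occur more than once are not named.

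The genes and all lists were chosen with earlier results of these data known. Genes named are the 15 highest in RA-sufficient PL and the 5 highest in In/B by mean CPM, the 5 largest and 5 smallest log2 fold changes, members of a list, and 3 genes at each edge of the rule. Genes of groups by function and neighboring genes were chosen after their values were seen. Python 3.11.15 with matplotlib 3.10.9 drew the figures. Proteins were not analysed here, and the values of 1 of the 90 genes are left out of the text and of the plot of all genes by library. List counts without 1 RA-deficient library were added after the data were seen.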

Additional observations from a re-analysis of the deposited data

How the results depend on the processing

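The number of genes that met the rule depended on its limits. It was 188, 47 and 4 with a minimum of 0.5, 2 and 5 CPM in place of 1, and the 47 and 4 were all among the 90. Over the rule applied without 1 library it ran from 107 to 319, the highest without RA-deficient replicate 3 and 149 without RA-deficient replicate 1. With TMM or RLE scaling it was 86 and 87, with at most 1 count in every RA-deficient library 100.

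The count of 84 genes called higher against In/B was 10 of 12 tested with a mean of at least 50 counts, since fewer genes pass that filter. It was 69 with all 9 libraries in 1 fit, 75 to 84 under the other alternatives and 79 to 84 with a library left out, and Glrb was called lower in each. The replicate numbers did not pair the libraries: deviations of same-numbered libraries correlated at -0.27, -0.174 and -0.166. With the number as a block, 79 genes were called higher and 1 lower.

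The number of genes at 1 CPM or more in all In/B libraries was 9 with a minimum of 0.5 CPM in place of 3, and 4 to 6 with an In/B library left out (6 without replicate 1 or 2). The number without an In/B read was 7 to 18, the highest without replicate 2, the deepest. For Jakmip3 the log2 fold change was -0.23 to 0.31 with a library left out and turned positive without In/B replicate 1 (0.31) and without RA-sufficient replicate 2 (0.12), and was not called in either. Daw1 was not called with the block, with all 9 libraries, against a fold change of 2, at an adjusted p of 0.01 or without In/B replicate 1 or 2. 1700026D11Rik was not called with the block or at 0.01. With genes at or under 3 In/B counts set to 3, an alternative chosen after seeing the data, the median ratio to In/B was 15.6 in place of 12.3. Causes were not tested.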
